A study of Arabidopsis thaliana with 4 samples.

Results

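Of the 22746 Arabidopsis probe sets compared, 156 gave at least 2-fold more signal in the second repeat than in the first, both in control seedlings and in seedlings that overexpress the peptide hormone gene AtRALF1. The members were chosen by these same values. Signals under 1 were set to 1, 16 was added, log2 was taken, and a difference between repeats of at least 1 was required in each genotype. The difference between repeats is therefore given below as a description without a test, and so is its size in one genotype against the other. Only the comparison of 35S:AtRALF1 with control was tested.

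The study set whole seedlings with a constitutively raised level of AtRALF1 beside control seedlings on 4 Affymetrix arrays, 1 array per genotype and repeat. The control RNA was an equal mix from wild-type plants and plants with the empty pART27 vector, and the 35S:AtRALF1 RNA was pooled equally from 2 transgenic lines, with a transgene named AtRALF1-1 in the labels. The transgene is driven by the cauliflower mosaic virus 35S promoter, which is active in nearly all cells. All seedlings were 1 week old. After 48 h of cold at 4 °C they had been kept upright on plates at 24 °C under 16 h of light a day. The labels give neither the hour of harvest nor what separates the first from the second repeat (plantings, extractions or hybridizations), so these cannot be told apart.

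Many Arabidopsis genes follow the time of day. Clock genes of the morning and of the evening repress each other, and light acts through phytochromes and cryptochromes, partly by way of the transcription factor HY5 and its relatives, to raise genes for pigments, photosynthesis and photoprotection. Flavonols, a class of UV-absorbing pigments, are made under the same light control and are stored with sugars attached. Plastids carry their own genome, whose genes are transcribed in groups (operons), so that neighbours often share a transcript.

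The deposited values are linear signals, scaled by the authors to the same trimmed mean of 125.0 in each array. The median signal was 50.5 in the first and 46.1 in the second control array, and 48.5 and 42.0 in the 35S:AtRALF1 arrays. Values of the array's 3′ and 5′ control probe sets moved with the repeat. The ratio of 3′ to 5′ signal for ubiquitin was 2.22 in the first and 1.48 in the second control array, and 2.60 and 1.41 in 35S:AtRALF1. The corresponding ratios were 2.09, 1.51, 2.35 and 1.498 for GAPDH and 2.13, 1.47, 2.85 and 2.07 for actin, so all 3 were lower in the second repeat of each genotype. The part of this shift in the differences below was not tested. Among the 3 of 12 root markers measured, PYK10, a beta-glucosidase, had signals between 4085 and 7079.2, but the root hair expansins EXPA18 and EXPA7 only 99.6 to 190.8 and 62.2 to 130.7. RCA, Rubisco activase of green tissue, had signals between 8571.6 and 9925.7. Summed over the 2 of 8 green shoot markers measured, the signal was 19986.8 then 15815.8 in control and 17480.5 then 16175.6 in 35S:AtRALF1 seedlings, first repeat then second. Over the root markers it was 7277.1 then 6307.2, and 5982.7 then 4406.5, nearly all of it from PYK10, while EXPA7 was higher in the second repeat by 0.65 in control and 0.20 in 35S:AtRALF1 seedlings on the log2 scale. PAP85, the 1 measured of 11 seed storage and late embryo markers, was dim, at 3.8 then 34.8 and 14.3 then 33.1. The part of these shifts was not tested either. In whole seedlings, fewer cells of a type and less RNA per cell cannot be told apart.

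In the control alone, 564 probe sets (2.48%) were at least 1 higher in the second repeat on the log2(signal + 16) scale, and in 35S:AtRALF1 alone 809 (3.56%). Both held for 156 (0.686%), while 295 (1.3%) were lower by as much in both. Over the 156, the median difference was 1.399 ± 0.47 for control and 1.62 ± 0.63 for 35S:AtRALF1 arrays (SD over members), against medians of -0.03 and -0.04 over all probe sets. The medians were 1.33 and 1.45 for members with 1 nuclear gene, 1.497 and 2.25 for plastid-encoded members, and 1.42 and 1.65 for members without a gene name. The 4 signals separated by repeat, with no overlap, in 154 of the 156. This follows in large part from the rule, and the share over all probe sets was not counted. A difference of at least 2 in both genotypes was reached by 10 members, and at least 3-fold by 39. Most were bright: 135 (86.5%) had a mean signal above that of the median probe set. The rule favours this, since the offset of 16 keeps out many dim probe sets and the mean includes the high second-repeat arrays. By contrast, 24 members had signals under 20 in both first-repeat arrays. There the scale understates a difference and signal cannot be told from background.

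**Figure D1:**
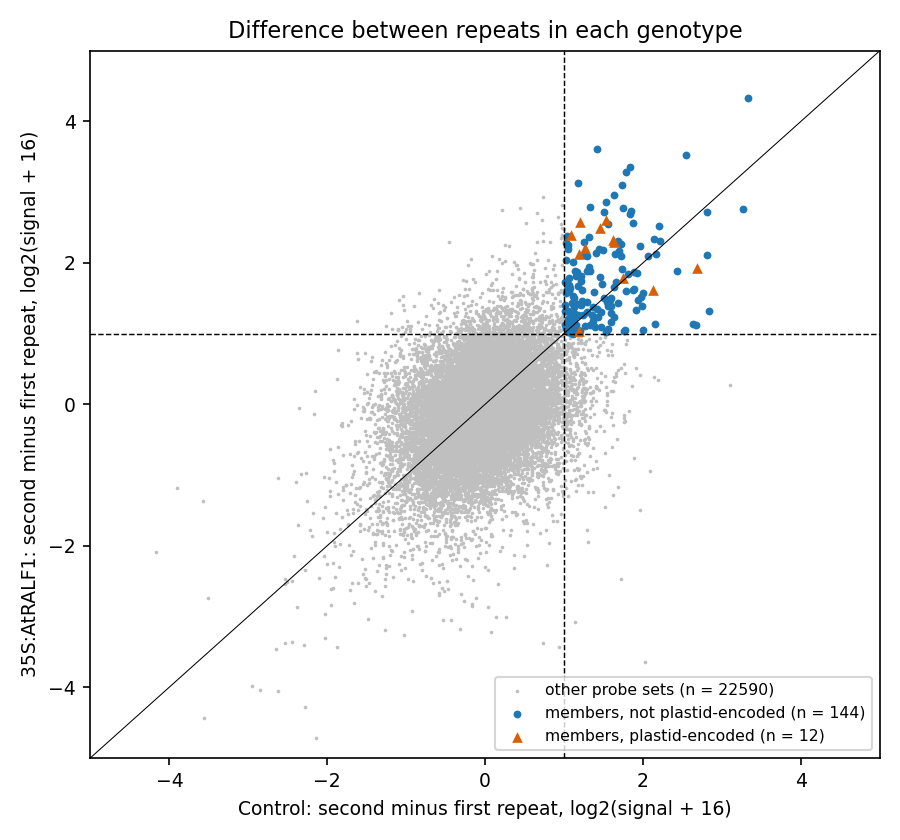
Each point is 1 probe set, with its second-minus-first-repeat difference on the log2(signal + 16) scale in the control (x axis) and in 35S:AtRALF1 (y axis). Dashed lines mark the threshold of 1 and the diagonal marks equal differences. The 156 members (blue circles, and orange triangles for the 12 plastid-encoded ones) fill the upper right corner by the rule that chose them, and 103 of them lie above the diagonal.

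A single gene is named for 75 of the 156 probe sets (74 genes, since AT5G54130 has a pair of them), several genes for 1, and none for 80. Over all 22746 probe sets, 8730 had none. The functions below cover only the named part of the group. Of the 75, 63 are nuclear and 12 are encoded in the plastid. The largest mean difference of all belongs to a probe set without a gene name, with control signals of 210.8 then 2260.4 and 35S:AtRALF1 signals of 102.8 then 2386.8 (first repeat then second). The nuclear genes lie on all 5 chromosomes, with 18, 8, 8, 6 and 23 probe sets on chromosomes 1 to 5. Only AT5G24690 and AT5G24710 are neighbours in the RefSeq gene order.

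The named gene with the largest mean difference was AT2G27420, which encodes a papain-like cysteine protease. Its signal was 55.6 in the first and 485.8 in the second control array, and 12.5 in the first and 172.1 in the second 35S:AtRALF1 array. Below, pairs of signals are given in this order, first repeat then second. Both second-repeat arrays lay above both first-repeat arrays, with log2 differences of 2.81 and 2.72. AT5G47610 encodes a RING-type protein of the ubiquitin ligase class, which marks other proteins for turnover. Its control signals of 223.5 then 1082.8 and 35S:AtRALF1 signals of 184.6 then 1137.7 gave log2 differences of 2.20 and 2.52. The genotypes lay close together at each repeat.

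AT1G64500, a glutaredoxin-family gene, had control signals of 158.3 then 585.3 and 35S:AtRALF1 signals of 37.6 then 506.8. AT2G15020, a gene of unknown function, had control signals of 92.6 then 274.3 and 35S:AtRALF1 signals of 4.3 then 230.8. In both genes the second-repeat arrays of the genotypes were near each other, and the first-repeat array of 35S:AtRALF1 was the lowest of the 4. The log2 difference of AT1G64500 was 1.79 in control and 3.29 in 35S:AtRALF1 seedlings, and that of AT2G15020 was 1.42 and 3.60. AT5G42760, a gene of the leucine carboxyl methyltransferase family, differed by 2.22 in the control and 2.31 in 35S:AtRALF1, and AT3G24460, of the Serinc membrane protein family, by 2.16 and 2.13.

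By hand, after the members were seen, 3 were picked out as having known parts in light signalling or in responses to light. The share of such genes over all probe sets was not counted. On the list of light signalling genes described below, only 1 of 28 could be matched to a probe set, and it was not a member. AFR is an F-box protein needed for a full response to far-red light through phytochrome A. AT3G52740 is BIC1, which holds cryptochromes inactive and is itself raised by light. AT1G70000 is MYBD, a MYB-like factor that promotes anthocyanin accumulation in light. AFR had control signals of 192.3 then 414.9 and 35S:AtRALF1 signals of 92.4 then 498.6. BIC1 had 110.6 then 240.0 in control and 69.9 then 269.8 in 35S:AtRALF1 seedlings. MYBD had 283.8 then 728.6 in control and 183.1 then 1015.0 in 35S:AtRALF1 seedlings. For each of the 3, 35S:AtRALF1 was below control in the first repeat and above it in the second, so that the log2 difference between repeats was larger in 35S:AtRALF1 (2.25, 1.73 and 2.37) than in the control (1.05, 1.02 and 1.31).

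Few of the genes that mark the time of day could be read. Of 310 genes on 19 lists of clock, light, metabolic and stress genes, 35 could be matched by name to a probe set of their own. For 6 lists, among them the B-box and CONSTANS-like genes, there was no match. For markers and lists alike, measured means matched in this way. As 8730 of the 22746 probe sets, 80 members among them, carry no gene name, unmatched genes may be on the array unnamed. Whether they are members could not be read. For the clock, 3 of 32 listed genes were measured and none of these 3 was a member. GI (GIGANTEA), an evening gene of the clock, was lower in the second repeat, with control signals of 236.7 then 95.4 and 35S:AtRALF1 signals of 267.9 then 119.5. Its log2 differences were -1.18 and -1.07. The morning gene AT5G52660 (RVE6), an activator of the evening genes, had control signals of 96.5 then 164.6 and 35S:AtRALF1 signals of 102.1 then 188.5, with differences of 0.68 and 0.79. AT1G69570 (CDF5), which represses flowering in the morning, differed by 0.49 in the control and by -0.36 in 35S:AtRALF1. The light signalling list had 1 measured gene of 28, HYH, the close relative of HY5. Its control signals of 73.6 then 155.4 and 35S:AtRALF1 signals of 45.7 then 92.6 gave differences of 0.94 and 0.82, just short of membership. In the 23-gene list of nuclear photosynthesis genes, the 3 measured (RCA, LHCB4.1 and LHCB4.2) differed by -0.55 to 0.06.

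A set of 3 members, also picked out by hand after the members were seen, attach sugars to flavonols. The share of flavonol genes over all probe sets was not counted. Glycosyltransferase or UDP words in gene symbols and synonyms, a wider class, were found for 3 members (4.0% of those with 1 gene). Over all probe sets with 1 gene the share was 0.555%. UGT78D1 adds rhamnose and UGT78D2 adds glucose at the 3 position, and AT1G06000 adds rhamnose at the 7 position. UGT78D2 had control signals of 177.9 then 544.4 and 35S:AtRALF1 signals of 58.1 then 521.8. AT1G06000 had 357.8 then 884.8 in control and 105.2 then 506.4 in 35S:AtRALF1 seedlings. UGT78D1 had 161.6 then 356.5 in control and 33.9 then 135.3 in 35S:AtRALF1 seedlings, and is 1 of the only 2 members whose arrays overlap by repeat, since the first control array lay above the second of 35S:AtRALF1. In all 3 genes, 35S:AtRALF1 was below control in both repeats. In control the log2 differences between repeats were 1.53 for UGT78D2, 1.27 for AT1G06000 and 1.07 for UGT78D1; in 35S:AtRALF1 they were larger, at 2.86, 2.11 and 1.60. UGT78D1 and UGT78D2 are 2 of 4 measured genes on a 20-gene list of the flavonoid and anthocyanin pathway. The other measured genes on that list act in the anthocyanin branch, and neither was higher: DFR, dihydroflavonol reductase, differed by -0.01 in the control and -0.32 in 35S:AtRALF1, and UF3GT, an anthocyanin xylosyltransferase, by -0.41 and -0.06.

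**Figure D2:**
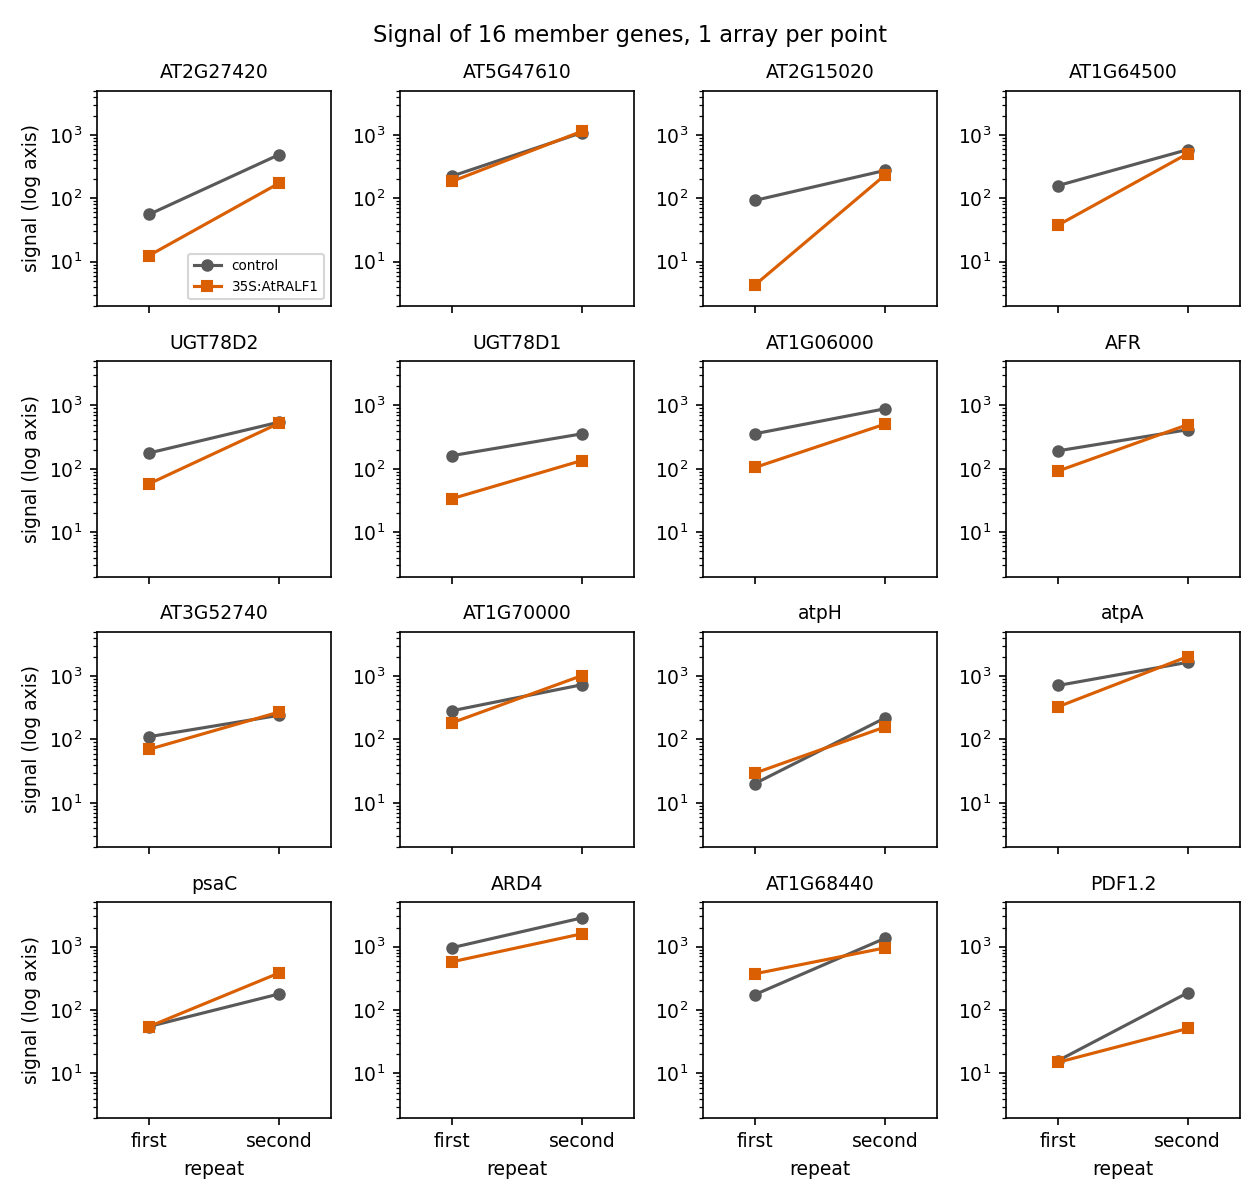
Signal (log axis) in the first and second repeat for 16 member genes, with control as grey circles and 35S:AtRALF1 as orange squares. Each point is 1 array and lines join the arrays of a genotype. The lines of UGT78D1, AT1G06000 and AT2G27420 stay apart, with 35S:AtRALF1 below, whereas those of AT2G15020, AT1G64500 and UGT78D2 are apart in the first repeat and nearly meet in the second.

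Plastid-encoded genes made up 12 members of 69 measured (17.39%). The share was 0.47% of the 13415 probe sets with 1 nuclear gene and 0.686% of all 22746 probe sets. The 12 plastid-encoded members fall into 5 stretches of the plastid gene order: atpA, atpF and atpH; psaA; psaI, ycf4 and cemA; psbB and psbT; and psaC, ndhE and ndhG. As neighbours often share a transcript, the 12 need not be separate cases. The atp genes encode subunits of the plastid ATP synthase, the psa genes subunits of photosystem I (which ycf4 helps to assemble), the psb genes subunits of photosystem II, the ndh genes subunits of the NADH dehydrogenase-like complex, and cemA an envelope membrane protein.

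In the ATP synthase stretch, atpA had control signals of 709.4 then 1646.5 and 35S:AtRALF1 signals of 327.0 then 2027.9. Next to it, atpF had 91.6 then 346.2 in control and 42.2 then 184.8 in 35S:AtRALF1 seedlings, and atpH had 20.2 then 217.5 in control and 29.5 then 157.1 in 35S:AtRALF1 seedlings. The next gene measured, atpI, had low control signals of 14.1 then 9.6 and 35S:AtRALF1 signals of 12.9 then 24.2 and was not a member; these cannot be told from background, so a difference there could not be read. For photosystem I, psaA had 78.8 then 258.5 in control and 36.8 then 304.8 in 35S:AtRALF1 seedlings, and psaC had 55.0 then 179.2 in control and 54.9 then 383.0 in 35S:AtRALF1 seedlings. For these photosystem I genes, the second repeat was 3.26 to 8.28 times the first. Of the rest, ndhG was the dimmest, with control signals of 1.6 then 24.3 and 35S:AtRALF1 signals of 20.1 then 57.7.

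Over all 69 plastid-encoded genes, the difference between repeats was positive in both genotypes for 46 and negative in both for 10, with medians of 0.41 in control and 0.61 in 35S:AtRALF1 seedlings. Members were 4 of 6 psa and ycf4 genes, 3 of 6 atp genes, 2 of 15 psb genes and 2 of 10 ndh genes, but 0 of 6 pet genes (cytochrome b6f complex), 0 of 15 ribosomal protein genes and 0 of 4 rpo genes (plastid RNA polymerase). The ribosomal protein genes rps3 and rpl22 were lower by at least 1 in both genotypes. The difference between repeats was thus not shared by the whole plastid genome.

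**Figure D3:**
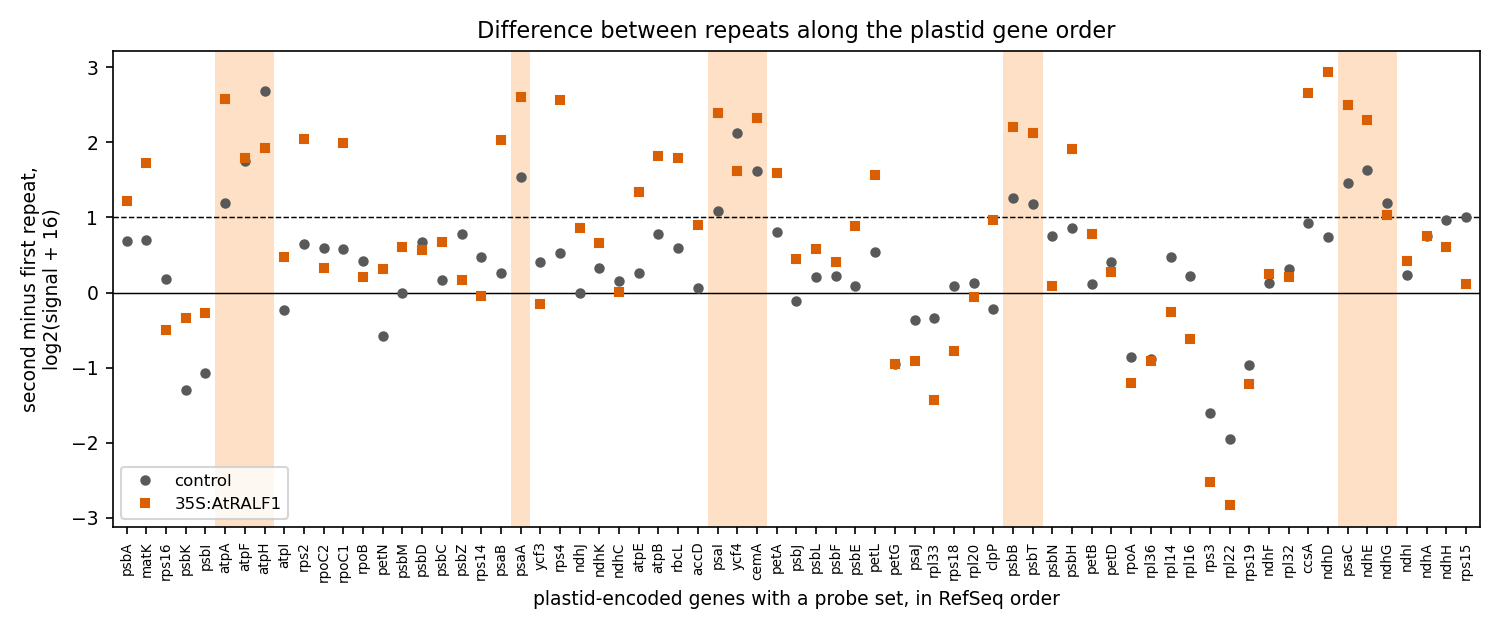
Second-minus-first-repeat difference on the log2(signal + 16) scale (y axis) for the 69 plastid-encoded genes with a probe set, placed in RefSeq gene order (x axis), with control as grey circles and 35S:AtRALF1 as orange squares. Shaded stretches hold the 12 members. Both genotypes lie above the dashed line at 1 in the shaded stretches by the rule, and rps3 and rpl22 lie lowest.

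Among genes of metabolism and transport, ARD4, an acireductone dioxygenase of the methionine salvage cycle, was 1 of the brightest named members, with control signals of 961.6 then 2836.4 and 35S:AtRALF1 signals of 576.2 then 1591.8. AT5G15950, an S-adenosylmethionine decarboxylase of polyamine synthesis, had 180.8 then 480.0 in control and 68.5 then 567.1 in 35S:AtRALF1 seedlings. IAGLU, which joins glucose to the auxin indole-3-acetic acid, had 89.2 then 300.7 in control and 89.1 then 241.1 in 35S:AtRALF1 seedlings. ARD4 and IAGLU differed by about as much in both genotypes (log2 1.54 and 1.44 for ARD4, 1.590 and 1.29 for IAGLU), and AT5G15950 by 1.33 in the control and 2.79 in 35S:AtRALF1. SWEET2, a sugar transporter of the vacuole membrane, had 319.6 then 974.2 in control and 286.6 then 778.4 in 35S:AtRALF1 seedlings. AT1G68570 (NPF3.1), a transporter of nitrate and gibberellin, had 106.6 then 327.8 in control and 73.9 then 392.4 in 35S:AtRALF1 seedlings. AT2G36630, of the TauE/SafE family of membrane exporters, had 192.5 then 454.3 in control and 48.7 then 551.8 in 35S:AtRALF1 seedlings. Its log2 difference of 1.17 in control and 3.13 in 35S:AtRALF1 seedlings was among the 5 that differed most between genotypes. Genes of lipid metabolism (AT5G11650, AT1G10740, AT3G48460 and SDRB) differed by 1.18 to 1.79 in the control and by 1.05 to 1.81 in 35S:AtRALF1.

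A few members act in the wall or as secreted peptides, among them 1 of 19 genes with an expansin symbol and 1 of 11 with a RALF symbol. RALFL32, a relative of AtRALF1, had control signals of 297.5 then 754.5 and 35S:AtRALF1 signals of 246.3 then 701.1. EXPA20, an expansin that loosens walls, was dim, with 1.7 then 25.5 in control and 10.5 then 65.1 in 35S:AtRALF1 seedlings. AT1G65870 (a dirigent-like protein), AT1G23205 (an invertase or pectin methylesterase inhibitor-like protein) and AT1G09550 (a pectin acetylesterase) differed by 1.72, 1.07 and 1.197 in the control and by 2.26, 1.65 and 1.03 in 35S:AtRALF1. Besides AT5G47610, the RING-type protein genes AT5G24870, AT5G47050 and AT5G41400 were members, with differences of 2.00, 1.592 and 1.29 in the control and of 1.05, 1.39 and 2.103 in 35S:AtRALF1.

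PDF1.2, a plant defensin raised by jasmonate and ethylene, was among the 4 members with a difference larger by at least 1 in the control. Control arrays read 15.9 then 187.7, and 35S:AtRALF1 arrays 15.0 then 51.3. The first-repeat arrays of the genotypes were alike, and the second control array stood above the rest. It is 1 of 3 measured genes on a 24-gene list of touch, wound and jasmonate genes; WRKY53 and THI2.1 differed by -0.05 to 0.53. AT5G51440, a small heat shock protein of mitochondria, had control signals of 50.5 then 126.9 and 35S:AtRALF1 signals of 27.3 then 81.1. Of 20 listed heat shock genes, 5 had a probe set of their own, and AT5G51440 was the only member among these 5. Their medians were 0.80 in the control and 0.87 in 35S:AtRALF1. Only 3 of the 5 were positive in both genotypes, and 0 were negative in both. AT1G53540 differed by 0.80 in the control and -0.41 in 35S:AtRALF1, and ATHSP22.0 by -0.85 and 1.16. A member probe set shared by AT1G59860 and AT1G07400, both on the heat shock list, was not counted there. It had control signals of 32.3 then 134.7 and 35S:AtRALF1 signals of 2.0 then 62.7, with differences of 1.64 and 2.13. On the cold list, 6 of 16 genes were measured and none was a member. Of these 6, 3 were negative and 1 positive in both genotypes, with medians of -0.54 and -0.51. Only COR15A, which protects chloroplast membranes in the cold, was lower by at least 1 in both (290.1 then 4.4 in control, 57.4 then 16.2 in 35S:AtRALF1), and STZ, a zinc finger repressor of stress genes, differed by -0.26 in control and 1.25 in 35S:AtRALF1 seedlings.

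Other bright members were AT3G56290, AT1G55960 (a START-like lipid-binding protein), AT5G61820 (a relative of a legume nodulin), AT1G65490, AT3G57020 (a strictosidine synthase-like protein) and AT5G23920. AT3G56290 had the highest mean signal of the named members, with 1117.6 then 3143.9 in control and 596.8 then 1978.5 in 35S:AtRALF1 seedlings. The others differed between repeats by 1.06 to 1.97 in the control and by 1.00 to 1.92 in 35S:AtRALF1. AT5G54130, the gene with a pair of probe sets, differed by 1.68 and 1.12 in control and by 1.43 and 1.05 in 35S:AtRALF1 seedlings, so both probe sets went the same way. Some members were hardly above 0 in the first repeat: AT2G02620 had 1.0 then 34.2 in control and 1.6 then 20.8 in 35S:AtRALF1 seedlings, and AT1G54420 had 1.2 then 29.0 and 3.5 then 25.4.

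Just inside the threshold, the smaller of the differences was 1.00 for a probe set without a gene name, 1.00 for AT3G57020 and 1.01 for AT1G22810, an AP2/ERF factor. Just outside it were AT4G27657, AT3G21390 (a mitochondrial carrier of thiamine pyrophosphate) and AT2G44670 (an FCS-like zinc finger protein), at 0.9985, 0.997 and 0.991, so the border of the group separates genes that are nearly the same.

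The size of the difference between repeats was then set side by side in the genotypes; with 1 array per genotype and repeat this has no test. It was larger in 35S:AtRALF1 in 103 of the 156 members (66.0%), against 48.3% of all probe sets, with a median difference of 0.19 against -0.02. It was larger by at least 1 in 35S:AtRALF1 in 23 of the 156 members, where the share over all probe sets was 4.77%. In 4 of the 156 it was larger by at least 1 in the control, where the share over all was 6.3%. Differences between repeats were also wider in 35S:AtRALF1 over all probe sets, with an SD of 0.63 against 0.51 in the control. Among the 295 probe sets that were lower in the second repeat in both genotypes, the difference was likewise larger in 35S:AtRALF1 in 198 (67.1%). It was larger in 35S:AtRALF1 for 9 of the 12 plastid-encoded members (median excess 0.82) and for 37 of the 63 with a nuclear gene (median 0.07). Over all 69 plastid-encoded genes it was larger in 35S:AtRALF1 for 40 (58.0%, median 0.37). For the 57 that were not members it was larger in 31 (median 0.19). The rule itself used the differences of the members.

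The named members with the largest excess in 35S:AtRALF1 were AT2G15020, AT2G36630, AT1G64500, AT5G15950 and atpA, at 2.19, 1.96, 1.499, 1.45 and 1.38. For all 5, the first-repeat array of 35S:AtRALF1 was the lowest of the 4. The largest excess in the control was found for PDF1.2, AT1G68440, AT2G41040 (a methyltransferase-like protein), AT5G24870 and atpH, for which 35S:AtRALF1 minus control came to -1.56, -1.52, -1.02, -0.95 and -0.76. AT1G68440, a gene of unknown function, had 175.3 then 1350.4 in control and 373.3 then 954.4 in 35S:AtRALF1 seedlings, with both 35S:AtRALF1 values inside the range of the control.

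Relative to control, 35S:AtRALF1 was lower in the first repeat for 127 of the 156 members (81.4%, against 53.7% of all probe sets). In the second repeat it was lower for 102 (65.4%, against 54.4% of all). The median log2 differences of the members were -0.36 in the first and -0.15 in the second repeat. Over all probe sets the medians were -0.03 and -0.04. It was lower in both repeats for 90 members (57.7%, against 31.5% of all). Among the 295 probe sets that were lower in the second repeat in both genotypes, 35S:AtRALF1 was below control in both repeats for 128. These differences come from the same arrays that the rule used. Over both repeats together the median was -0.29 for the members and -0.04 for all probe sets.

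**Figure D4:**
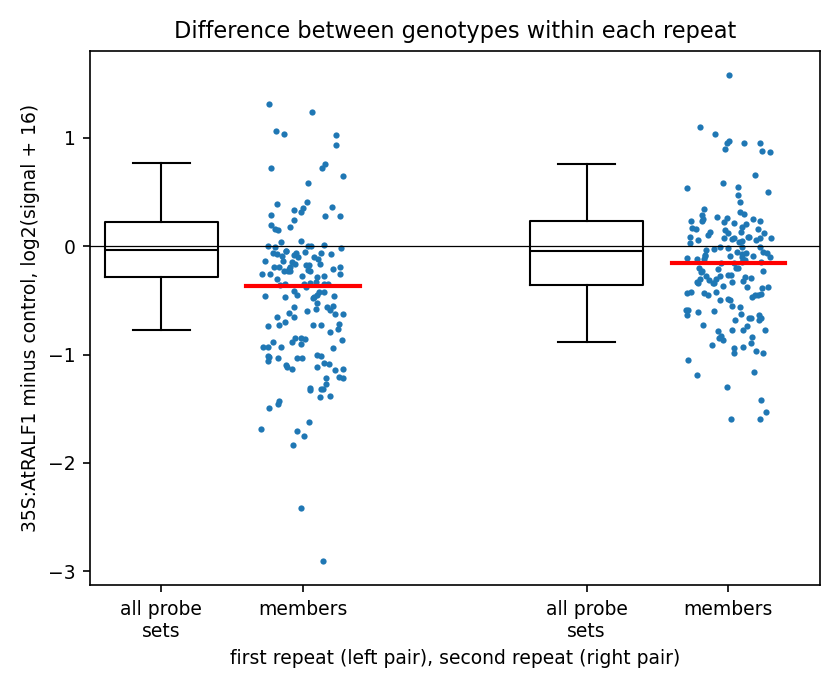
35S:AtRALF1 minus control on the log2(signal + 16) scale (y axis), in the first repeat (left pair) and the second (right pair). Boxes give the quartiles of all 22746 probe sets with whiskers from the 5th to the 95th percentile, dots are the 156 members, and red lines are their medians of -0.36 and -0.15.

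In the test of 35S:AtRALF1 against control, limma called no probe set of 22746 at an adjusted p under 0.05 (0.0%), and so none of the members, whose smallest adjusted p was 0.987. At an unadjusted p under 0.05, 458 probe sets were higher and 522 lower (2.01% and 2.29%), with 0 members among them. The arrays of a genotype are its first and second repeat, so that for members the spread in this fit holds the very difference by which they were chosen, and a member had little chance to pass. The count and the standard errors here are those of a fit without a term for the repeat. Among members with a single gene name the 5 with the smallest p were UGT78D1, at -1.57 (standard error 0.67), AT1G06000 at -1.21 (0.83) and AT1G55960 at -0.96 (0.82) on the log2 scale, and on the other side AT5G11650, a monoacylglycerol lipase-like gene, at 0.97 (0.81) and ndhG at 0.95 (0.56); each had an adjusted p of 0.987 or more from limma. With a term for the repeat in the limma fit, 39 members were lower (25.0%) and 7 higher (4.49%) at an unadjusted p under 0.05. Of all probe sets, 4.02% were lower and 3.23% higher. Among the 295 probe sets that were lower in the second repeat in both genotypes, this limma fit gave 34 lower and 23 higher. The standard error of UGT78D1 was then 0.24, and the smallest limma adjusted p of the members was 0.659. With 2 arrays against 2, the smallest p that an exact permutation test allows is 0.333. As the repeats may not be separate plantings, the p-values reflect the scatter among these arrays alone, which can be technical.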

How the data were processed

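Each probe set's deposited value is a linear intensity (signal). Per the deposited columns, the authors had brought the 4 arrays to one level, a mean of 125.0 once the top and bottom 2% are trimmed; the software and background correction are not given in the sources, and nothing was rescaled here. The 64 control probe sets were dropped, values below 1 were raised to 1, and log2(value + 16) was used throughout. The genotypes were tested by limma 3.58.1 (R 4.3.3) on all 22746 probe sets, two-sided, with eBayes moderation that follows signal (degrees of freedom: residual 2, prior 2.66) and Benjamini-Hochberg adjustment. The fit was tested on simulated data. The number of arrays limits the precision.

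Probe sets were named from the platform annotation, brought up to date with RefSeq (TAIR10.1); 13484 of 13513 with a single gene matched a locus. Genes are named in the text by rules on the size of the repeat difference, signal, list membership, genotype difference and p, and closeness to the threshold; other names are examples of roles. Members, lists and rules were chosen with earlier results of these data known. Roles were assigned from general knowledge after the members were seen. Shares over all probe sets were counted only for plastid-encoded genes and for words in gene symbols and synonyms. Besides expansin and RALF, these words found 3 members of 75 for glycosyltransferase or UDP. They found 1 of 27 for transporter, 1 of 4 for plant defensin and 1 of 12 for auxin. Transcription factor, kinase, heat shock, peroxidase, cytochrome P450 and ethylene words found 0 members. For other roles the share was not counted. No promoter or other sequence was used here.

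As alternatives, arrays were quantile or cyclic loess normalized, the offset was 1 or 64, the dimmest probe sets were dropped (highest 60% kept), the variance trend was left out, the repeat entered the model, the fold was 1.5 or 3, and each array was left out in turn.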

Additional observations from a re-analysis of the deposited data

Results flagged for a closer look

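A pair of list genes outside the group had differences between repeats of opposite sign in the genotypes, each at least 0.5 on the log2 scale. This was not tested, since each difference rests on 1 pair of arrays. AKINBETA1, a subunit of the energy-sensing kinase SnRK1 and a dark-inducible gene, differed by 0.69 in the control and -0.57 in 35S:AtRALF1. ATHSP22.0, a small heat shock protein, differed by -0.85 in the control and 1.16 in 35S:AtRALF1.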

How the results depend on the processing

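The number of members depended most on the offset and the fold: 514 with an offset of 1 (all 156 included), 82 with an offset of 64, 644 at 1.5-fold and 39 at 3-fold. Quantile and cyclic loess normalization gave 176 and 169, with 151 and 152 of the 156 shared. Of the lists, the morning clock genes gained 1 member at 1.5-fold; the light signalling genes gained 1 with an offset of 1 and 1 at 1.5-fold; the flavonoid list held 1 with an offset of 64 and 0 at 3-fold; the heat shock list held 0 with an offset of 64, 2 at 1.5-fold and 0 at 3-fold; the touch list held 0 with an offset of 64 and 0 at 3-fold. Among 158 repeat differences recomputed for 32 named genes, 0 reversed and 33 moved by more than the spread between genotypes. The median excess of the difference in 35S:AtRALF1 was 0.11 with an offset of 64 and 0.0712 over the nuclear members.

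Same-numbered arrays deviated together (r = 0.392), but there are only 2 pairs and the labels do not say what a number shares. With the replicate block, limma called 1 probe set (0.0044%) and 0 members (smallest adjusted p 0.659). At an unadjusted limma p under 0.05, 39 members were lower (25.0%) and 7 higher (4.49%), against 4.02% and 3.23% of all. Of the 295 probe sets lower in the second repeat in both genotypes, 34 were lower and 23 higher. The block also called 1 with quantile normalization, cyclic loess, an offset of 1 or an offset of 64, and the highest 60% of signal without it called 1. The block on the highest 60% of signal, a choice made after seeing the data, called 45 (0.33%), with 4 of 140 members: UGT78D1 at -1.57 (limma adjusted p 0.0318), AT2G27420 at -1.37 (0.0389), and, without a gene name, a pair of probe sets at -2.22 (0.0165) and 1.44 (0.046). Leaving out 1 array called 0 each time and moved the median genotype difference over members from -0.29 to between -1.12 and 0.54, since it leaves the repeats unbalanced: it was positive at 0.43 without control replicate 2 and at 0.54 without 35S:AtRALF1 replicate 1. The members themselves cannot be found with an array left out, as 1 genotype then has no difference between repeats. Without detection calls, members dim in the first repeat have no firm level there.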
